A study of Mus musculus with 6 samples.

Results

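The genes of the elastic fiber and its microfibrils were examined in tumors of B16F10, a mouse melanoma cell line, grown at a weight-bearing and a non-weight-bearing site. They are elastin (Eln), the fibrillins Fbn1 and Fbn2, the microfibril-associated proteins Mfap2, Mfap4 and Mfap5, the fibulins Fbln1, Fbln2 and Fbln5, and Emilin1. These 10 genes were taken by symbol from the 45777 genes of the deposited expression matrix. Total RNA was sequenced from 3 grafts of the hind footpad and 3 grafts of the flank skin, with 1 library per tumor. The labels give every host as Foxn1-/-, which lacks a functional thymus, at 8 weeks of age. The study grafted these cells into C57BL/6J and into Foxn1-null mice, in part at several sites of the same mouse, and its methods do not name the host of the sequenced tumors, so the strain is taken from the labels. Nothing in the labels ties a tumor to an animal, and the p-values below measure the spread between these tumors.

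Elastic fibers give skin, vessels and tendons their recoil. A core of cross-linked elastin is laid down on a scaffold of microfibrils, which are polymers of fibrillin decorated with microfibril-associated glycoproteins. Fibulins and emilins sit at the border of core and scaffold, and lysyl oxidases cross-link the elastin. Fibroblasts and vascular smooth muscle cells are the best known makers of these proteins in skin, and fibrillin microfibrils also hold latent TGF-beta through its binding proteins.

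The tumors gave between 46529649 and 66364366 reads on genes, and a count of 3 reads, taken as the limit of detection, equalled 0.0438 to 0.0673 CPM, the count relative to the scaled depth of the library. The 10 melanocyte markers summed to between 10113 and 18758 CPM in footpad and between 14902 and 25658 CPM in flank tumors. Of these 10, 9 were fitted lower in the footpad, 0 were called by edgeR or DESeq2, and 1 (Tyr, with a log2 fold change of -1.14) had an unadjusted p under 0.05. The 2 sites were set against each other by the quasi-likelihood test of edgeR on 17210 genes left after filtering low counts, and all 10 elastic fiber genes were among them. Calls needed an adjusted p under 0.05 and a change of at least 2-fold, which 3.76% of the genes tested met. An unadjusted p under 0.05, in either direction, was met by 25.3% of them. Values of single tumors follow in the order of replicates 1, 2 and 3. Of all genes, 121 were listed at exactly 0 in a tumor and with more than 100 reads in another tumor of the same site, so a 0 is reported below as listed. The methods mention isolated tumor cells and name no way of separating them from other cells, while the labels describe excised tumors. In such bulk RNA, fewer cells of a type and less RNA per cell cannot be told apart.

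Fbn1 and Mfap5, a fibrillin and a protein that binds it, were higher in footpad tumors, by log2 fold changes of 3.61 and 4.32. These 2 of 10 genes were the ones called higher, beside 2.89% of all genes tested, and 0 of 10 were called lower, beside 0.872%, with 1 of 10 lower at an unadjusted p under 0.05. DESeq2 called 5 of 10, which were Eln, Fbn1, Fbln2 and Mfap5 higher, beside 6.71% of all genes, and Fbln5 lower, beside 2.05%. Every footpad tumor lay above every flank tumor for 5 of 10 genes (Eln, Fbn1, Fbn2, Fbln2 and Mfap5), beside 17.5% of all genes tested. Every footpad tumor lay below every flank tumor for Fbln5, beside 14.9%. The sites thus did not overlap for 6 of the 10 genes, beside 32.5% of all genes tested. The median log2 fold change of the 10 genes was 1.77, with 9 of 10 fitted higher in footpad tumors, and that of all genes tested was -0.0042.

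**Figure D1:**
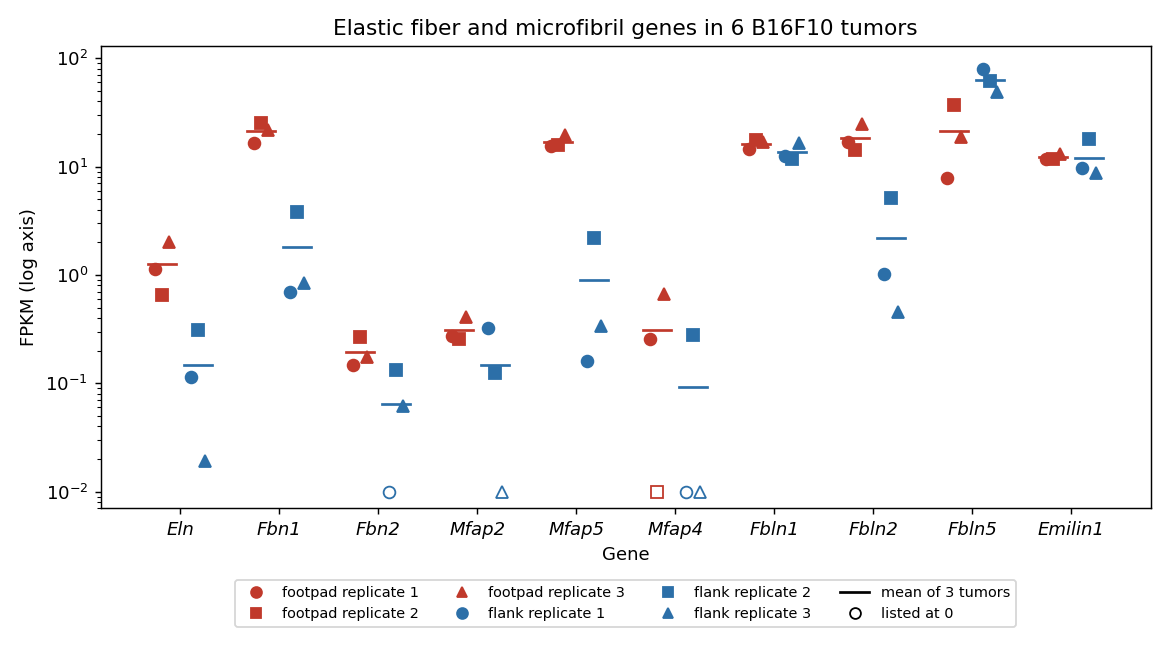
FPKM of each gene (log axis) in the 3 footpad tumors (red) and the 3 flank tumors (blue), with symbols for replicates, a line at the mean of 3 tumors, and open symbols for values listed at 0. Fbn1, Fbln2 and Mfap5 stand near the top of the footpad tumors, between 14.2 and 25.2 FPKM, and at or below 5.09 FPKM in flank tumors, while Fbln5 is the highest gene of each flank tumor.

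Eln, which encodes the elastin of the fiber core (gene ID 13717, chr5:134702595-134747368 on GRCm38.p6), was a low gene at both sites. Its level was 5.37, 2.70 and 8.47 CPM in footpad tumors and 0.552, 1.23 and 0.0959 CPM in flank tumors. The lowest footpad tumor stood above the highest flank tumor, and flank replicate 3 had only 6 reads of the gene. The fitted log2 fold change was 3.13 with a standard error of 0.83, and it missed the threshold (adjusted p = 0.0713). DESeq2 called it (adjusted p = 4.5e-04). Reads of the opposite-strand gene Gm30003, which overlaps the end of Eln where its transcription starts, could not be set apart, since the treatment of strand in the counting is not given in the sources used here. By the GENCODE annotation, opposite-strand genes also overlap Fbn1 (Gm9913), Fbn2 (Gm26507) and Mfap4 (Mapk7).

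Fbn1, the main fibrillin of mature microfibrils (gene ID 14118, chr2:125300594-125506485), was the most counted elastic fiber gene of the footpad tumors. Footpad tumors had 199, 266 and 236 CPM of it. Flank tumors had 8.59, 39.1 and 9.57 CPM. The footpad tumors were close together, and flank replicate 2 lay apart from the other flank tumors, though still far below the footpad. The gene rose by a log2 fold change of 3.61 with a standard error of 0.61 (adjusted p = 0.0253), and DESeq2 gave an adjusted p of 7.96e-05. The call did not hold with each tumor left out, which also leaves fewer tumors for the test. Without footpad replicates 1 or 3 the adjusted p was 0.0855 and 0.101, and without flank replicates 1 or 3 it was 0.0533 and 0.089. The fold change stayed between 3.26 and 4.68 on the log2 scale with each tumor left out.

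Fbn2, the fibrillin best known from developing tissue (gene ID 14119, chromosome 18), was far less abundant than Fbn1 at both sites. Its level was 1.91, 2.98 and 2.04 CPM in the footpad. Flank replicate 1 listed 0 reads, and flank replicates 2 and 3 stood at 1.44 and 0.735 CPM. The groups did not overlap, but the log2 fold change of 1.67 had a standard error of 1.10 and did not pass the test (adjusted p = 0.382). The FPKM of Fbn2 relative to Fbn1 was 0.00899, 0.0105 and 0.00809 in footpad tumors. Flank replicates 2 and 3 gave ratios of 0.0345 and 0.0727, above all footpad tumors. Flank replicate 1 was listed at 0 reads of Fbn2. If this 0 stood for at most 3 reads, its ratio was at most 0.00580, below all footpad tumors. Whether the sites overlapped in this ratio depends on that listed 0.

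Mfap5 and Mfap2 encode the small glycoproteins MAGP-2 and MAGP-1 that bind along fibrillin microfibrils. Mfap5 (gene ID 50530, chr6:122513584-122529290) reached 28.4, 25.5 and 32.6 CPM in footpad tumors. It was at 0.310, 3.42 and 0.591 CPM in flank tumors. All footpad tumors were high and alike, and flank replicate 2 was again the highest flank tumor. The gene rose by a log2 fold change of 4.32 with a standard error of 0.82 (adjusted p = 0.0345), the largest of the 10 genes. Its call was lost without footpad replicates 1 or 3 (adjusted p = 0.111 and 0.124) and without flank replicates 1 or 3 (adjusted p = 0.0533 and 0.113), with log2 fold changes of 4.33, 4.22, 3.84 and 3.94 in these fits.

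Mfap2 (gene ID 17150, chr4:141010424-141015976) had few reads in any tumor. The footpad tumors had 18, 25 and 28 reads, flank replicates 1 and 2 had 27 and 10, and flank replicate 3 listed 0. The groups overlapped, and the log2 fold change of 1.07 had a standard error of 1.05 (adjusted p = 0.559). The ratio of Mfap5 to Mfap2 by FPKM was 57.1, 62.0 and 48.5 in the footpad. Flank replicates 1 and 2 had smaller ratios, of 0.498 and 17.9. Flank replicate 3, with 0 reads of Mfap2, had a ratio of at least 10.3 by the limit of 3 reads, so it could not be placed below or above the footpad.

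Mfap4, a fibrinogen-related protein of elastic fibers (gene ID 76293, chr11:61485431-61488708), had 23 reads in footpad replicate 1, 56 in footpad replicate 3 and 26 in flank replicate 2. It was listed at 0 in the other tumors, including footpad replicate 2, which was the deepest library. The sites overlapped, and the log2 fold change of 1.88 had a standard error of 1.77 (adjusted p = 0.542). Within a site Mfap4 thus ran from 0 to 56 reads in the footpad, and Mfap2 from 0 to 27 reads in the flank.

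The fibulins divided. Fbln2, which binds fibrillin-1 and tropoelastin (gene ID 14115, chr6:91212460-91272540), was high in the footpad, at 91.0, 68.1 and 121 CPM. It was at 5.43, 23.1 and 2.38 CPM in the flank, so that the highest flank tumor was below the lowest footpad tumor. The log2 fold change was 3.18 with a standard error of 0.77, short of the threshold in edgeR (adjusted p = 0.0581) and past it in DESeq2 (adjusted p = 0.00767). Without flank replicate 2, the highest of the flank tumors, edgeR called it as well, at a log2 fold change of 4.57 (adjusted p = 0.0119).

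Fbln5, which tethers elastin to microfibrils and cells and is needed for elastic fiber assembly (gene ID 23876, chr12:101746565-101819119), ran the other way. Footpad tumors had 56.0, 120 and 61.6 CPM. Flank tumors had 266, 197 and 167 CPM. No tumor of the footpad reached the lowest flank tumor, and footpad replicate 2 came closest. The log2 fold change was -1.41 with a standard error of 0.32, that is 2.65-fold more in the flank, which missed the threshold in edgeR (adjusted p = 0.0518). DESeq2 called it lower in the footpad (adjusted p = 2.23e-04), and so did edgeR without footpad replicate 2, at a log2 fold change of -1.84 (adjusted p = 0.0194), a fit that called 1.12% of its genes lower.

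Fbln1, a fibulin of basement membranes and elastic fibers (gene ID 14114, chr15:85205949-85286294), was similar at both sites. Its level was 45.3, 54.9 and 49.4 CPM in the footpad and 40.1, 32.2 and 49.2 CPM in the flank. The ranges overlapped, and the log2 fold change of 0.30 had a standard error of 0.18 (adjusted p = 0.335). Emilin1, a glycoprotein of the elastin-microfibril border (gene ID 100952, chr5:30913387-30921279), stood at 50.3, 45.3 and 51.2 CPM in the footpad and at 44.0, 64.9 and 36.2 CPM in the flank. The flank tumors spread on both sides of the footpad tumors, and the log2 fold change was 0.02 with a standard error of 0.22 (adjusted p = 0.971).

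**Figure D2:**
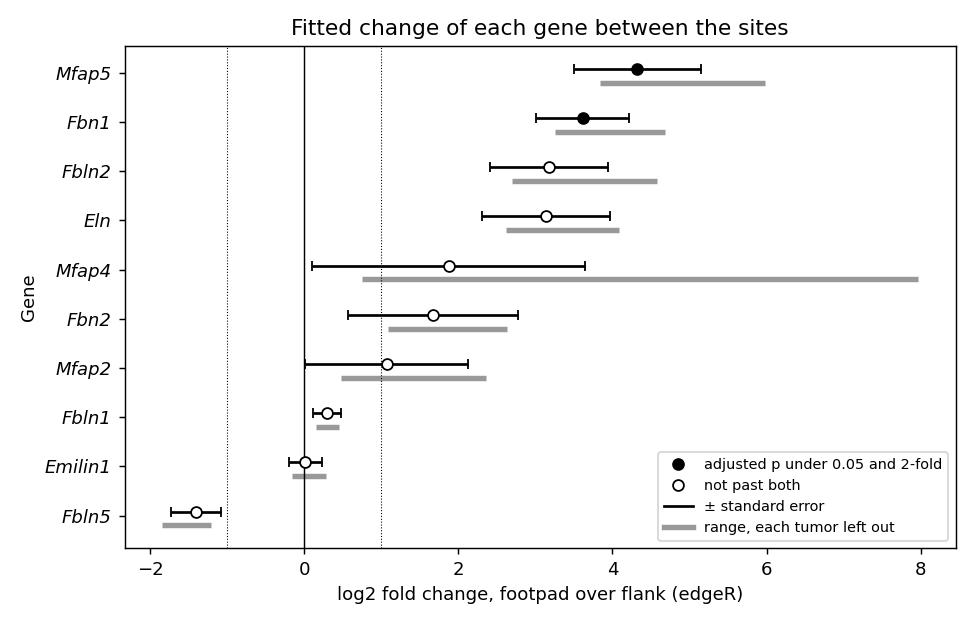
Fitted log2 fold change of footpad over flank tumors (edgeR, x axis) for each gene, with bars of 1 standard error, filled points for genes past both thresholds and gray bars for the range with each tumor left out. Only Mfap5 and Fbn1 are filled, Fbln5 is the gene to the left of 0, and the gray bar of Mfap4 runs to 7.96 because the remaining flank tumors are then listed at 0 and the fit depends on its prior count.

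The upstream sequences of Fbln5 and Fbln1 are shown because these relatives of 1 family differed in how their RNA was distributed between the sites. RefSeq gives start sites for 6 of the 10 genes in the table used here, and windows are shown where they hold no annotated exon. Each sequence ends next to the start site and is read 5′ to 3′ on the strand of the gene, from GRCm38.p6, with motif matches in capitals. The windows of the outer and the inner start of Fbln5 lie on the minus strand, at chr12:101819120-101819369 and chr12:101818485-101818733. The inner window is printed at 249 bases, without its farthest upstream base, which is exonic. Its motifs and GC content were taken on all 250 bases. The Fbln1 window shown lies on the plus strand at chr15:85205699-85205948. Another Fbln1 start, with the window chr15:85205758-85206007, is not shown because this window overlaps an exon.
Fbln5 outer start: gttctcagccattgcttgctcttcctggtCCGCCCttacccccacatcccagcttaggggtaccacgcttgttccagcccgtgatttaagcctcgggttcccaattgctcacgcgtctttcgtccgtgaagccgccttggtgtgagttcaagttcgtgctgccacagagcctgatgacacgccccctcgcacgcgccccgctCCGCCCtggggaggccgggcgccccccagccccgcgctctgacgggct
Fbln5 inner start: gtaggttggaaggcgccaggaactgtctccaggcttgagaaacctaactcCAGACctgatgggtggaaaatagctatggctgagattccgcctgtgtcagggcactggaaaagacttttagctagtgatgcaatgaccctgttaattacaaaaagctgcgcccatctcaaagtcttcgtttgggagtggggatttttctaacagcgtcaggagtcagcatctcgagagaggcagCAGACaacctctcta
Fbln1 start: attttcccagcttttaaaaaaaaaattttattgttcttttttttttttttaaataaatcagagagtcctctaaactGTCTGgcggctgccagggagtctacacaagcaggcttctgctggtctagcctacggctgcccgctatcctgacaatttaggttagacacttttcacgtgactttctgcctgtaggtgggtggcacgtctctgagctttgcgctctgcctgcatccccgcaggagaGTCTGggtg
Motifs were searched on both strands. The outer Fbln5 window holds 2 GC boxes (GGGCGG), present in 32.7% of 32851 promoter windows of 250 bases, and has a GC content of 65.2%, beside a median of 52.4%. The inner Fbln5 window holds 2 copies of the SMAD motif CAGAC, and so does the Fbln1 window, beside 42.2% of windows with this motif. Their GC contents were 49.6% and 46.4%. The TEAD motif GGAATG, the AP-1 motif TGANTCA, the TATA motif TATAAA and the CArG box had no match in the 3 windows shown. Of all windows, 12.6%, 6.75%, 12.4% and 1.47% hold them. In the windows shown, no match overlapped another. A match of letters is a description and not a site of binding.

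The deposited values of Fbln5 also differed in the length they imply. The length that the deposited count and FPKM imply together was 6884 bases in footpad replicate 1 and between 3122 and 3447 bases in the other 5 tumors, while in the other 9 genes the longest implied length was at most 1.16 times the shortest. GENCODE lists Fbln5 coding transcripts of 5829 and 2371 bases. The 6884 bases exceed both, so the implied length is not that of a listed coding transcript. A difference in transcript form was not tested. The deposited FPKM of footpad replicate 1 was 7.79, and with the median length of the gene it would be 15.9. Counts and the tests on them do not use this length.

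Compared per length of transcript, the order of the genes changed with the site. In footpad tumors the mean FPKM (± SD, n = 3) was 21.2 ± 14.8 for Fbln5, 21.2 ± 4.38 for Fbn1, 18.6 ± 5.42 for Fbln2, 17.0 ± 2.33 for Mfap5, 16.2 ± 1.63 for Fbln1 and 12.3 ± 0.808 for Emilin1. Neighbors in this order of FPKM overlapped over the tumors, except that every footpad tumor had more Fbln1 than any had Emilin1. In flank tumors Fbln5 led with 63.1 ± 15.1 FPKM, followed by Fbln1 with 13.7 ± 2.51 and Emilin1 with 12.1 ± 5.02, which overlapped each other. Fbln2, Fbn1 and Mfap5 followed at 2.19 ± 2.53, 1.79 ± 1.77 and 0.904 ± 1.14 FPKM, again with overlapping spread. Eln was at 1.27 ± 0.682 FPKM in footpad and 0.148 ± 0.147 FPKM in flank tumors, and Fbn2, Mfap2 and Mfap4 stayed under 0.32 FPKM on average at either site.

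The makeup of the elastic fiber RNA differed between the sites, while its sum in FPKM overlapped. Fbln5 held 59.5% to 76.2% of the summed FPKM of the 10 genes in flank tumors and 9.21% to 30.1% in footpad tumors. With the same length for each tumor, an alternative chosen after seeing the data, the footpad range was 15.8% to 30.0% and footpad replicate 1 moved from 9.21% to 16.8%. Fbn1 held 0.676% to 3.72% in flank and 18.4% to 20.5% in footpad tumors. Mfap5 held 0.154% to 2.15% in flank and 12.9% to 18.3% in footpad tumors. The sum itself was 84.5, 123 and 118 FPKM in the footpad and 104, 103 and 76.1 FPKM in the flank. Counted as CPM the sums did not overlap, with 479, 586 and 564 in the footpad and 365, 363 and 266 in the flank. Without Fbln5 the FPKM sums were 76.8, 85.9 and 99.4 in the footpad and 24.6, 41.7 and 27.1 in the flank. Fbln5 is the only gene of the 10 fitted lower in the footpad, so the sum without it restates the values of the single genes.

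**Figure D3:**
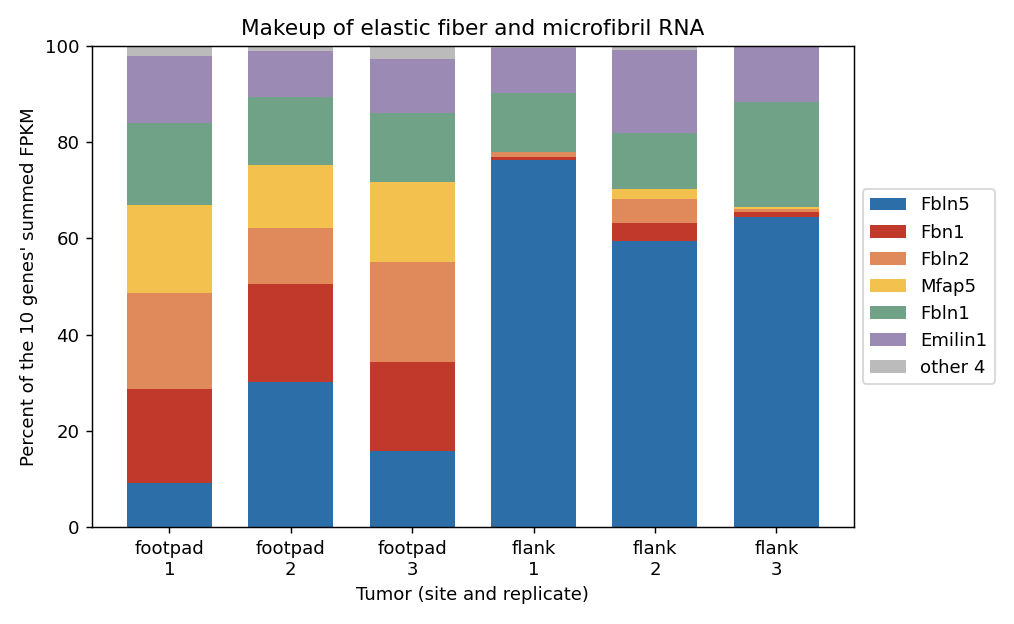
Share of each gene in the summed FPKM of the 10 genes (y axis, percent) in each tumor, with Eln, Fbn2, Mfap2 and Mfap4 drawn together in gray. Fbln5 fills more than 59% of each flank tumor and at most 30.1% of a footpad tumor, where Fbn1, Fbln2 and Mfap5 take similar shares.

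Markers of fibroblasts were also higher in footpad tumors. Of the 12 fibroblast markers, 8 were called higher in footpad tumors, beside 2.89% of all genes tested. Every footpad tumor lay above every flank tumor for 11 of the 12, beside 17.5% of all genes tested. Their median log2 fold change was 3.55. The markers summed to between 2878 and 3902 CPM in footpad and between 217 and 539 CPM in flank tumors, and none was at 0 in all flank tumors. Col1a1, a collagen chain of dermal fibroblasts, rose by a log2 fold change of 4.10 (adjusted p = 0.0206), and Dcn, a small proteoglycan, by 3.56 (adjusted p = 0.0353). Gsn, also on the list, had overlapping values and a log2 fold change of 0.42. Flank replicate 2 was the highest flank tumor for 11 of the 12 markers and for 7 of the 10 elastic fiber genes. This was not particular to fibroblast markers. It also led for 9 of 10 skeletal muscle, 6 of 7 macrophage, 6 of 7 adipocyte and 7 of 10 endothelial markers. It led for only 3 of 10 keratinocyte and 1 of 10 melanocyte markers. The share over all genes was not taken. The part of fibroblast content in the elastic fiber values was not tested.

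The elastic fiber genes summed to 0.166, 0.195 and 0.144 times the fibroblast marker CPM in the footpad and to 1.25, 0.674 and 1.22 times in the flank. The footpad tumors held less elastic fiber RNA per marker RNA, without overlap. Leaving the 3 collagens out of the markers gave 1.73, 1.61 and 1.68 in the footpad and 1.68, 2.30 and 2.22 in the flank, which overlapped. Leaving out Gsn as well, and Fbln5 from the elastic fiber genes, an alternative chosen after seeing the data, gave 3.96, 4.42 and 3.20 in the footpad and 16.3, 5.63 and 12.03 in the flank, again without overlap.

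Other markers moved less evenly. Their edgeR calls stand beside 2.89% of all genes tested called higher and 0.872% called lower. For DESeq2 these shares were 6.71% and 2.05%. Markers of smooth muscle and pericytes summed to 204 to 291 CPM in footpad and 106 to 185 CPM in flank tumors, with 3 of 10 tested called higher (Acta2, Cspg4 and Pdgfrb) and 2 fitted lower. The latter were Mylk, with a log2 fold change of -0.76 and every footpad tumor below every flank tumor (adjusted p = 0.112 in edgeR and 0.035 in DESeq2), and Kcnj8, with one of -1.10 (adjusted p = 0.201). Endothelial markers summed to 306 to 347 CPM in footpad and 174 to 210 CPM in flank tumors, with 2 of 10 called higher. Keratinocyte and skeletal muscle markers stood out in footpad replicate 2, at 812 and 1077 CPM beside 9.94 to 46.9 and 39.1 to 127 CPM in the other footpad tumors. In flank tumors they ran from 3.38 to 13.0 and from 11.3 to 199 CPM. EdgeR called 0 of 8 keratinocyte markers tested, and DESeq2 called 2 of them higher (Krt1 and Flg). Of the 8, 7 had an unadjusted p under 0.05, beside 25.3% of all genes tested. Of 9 skeletal muscle markers tested, 0 were called by either tool and 0 had an unadjusted p under 0.05. Tendon and cartilage markers went the other way in sum, at 12.6 to 19.9 CPM in footpad and 56.6 to 74.2 CPM in flank tumors. Of the 5 tendon and cartilage markers tested, 2 were called higher (Comp and Fmod) and 2 lower (Col2a1 and Col9a1). Comp, Tnmd, Chad and Mkx were listed at 0 in all flank tumors, so Comp passed the filter on low counts through the footpad tumors alone. Macrophage markers summed to 225 to 254 CPM in footpad and 32.3 to 162 CPM in flank tumors, with 1 of 7 called higher. Adipocyte markers summed to 14.1 to 26.1 CPM in footpad and 28.2 to 46.3 CPM in flank tumors, and 4 of 4 tested were fitted lower. By edgeR and by DESeq2, 0 of 4 adipocyte markers tested and 0 of 4 hemoglobin genes were called. An unadjusted p under 0.05 was met by 1 adipocyte marker and 0 hemoglobin genes. Hemoglobin took between 0.186% and 3.39% of reads. Their part in the elastic fiber values was not tested.

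**Figure D4:**
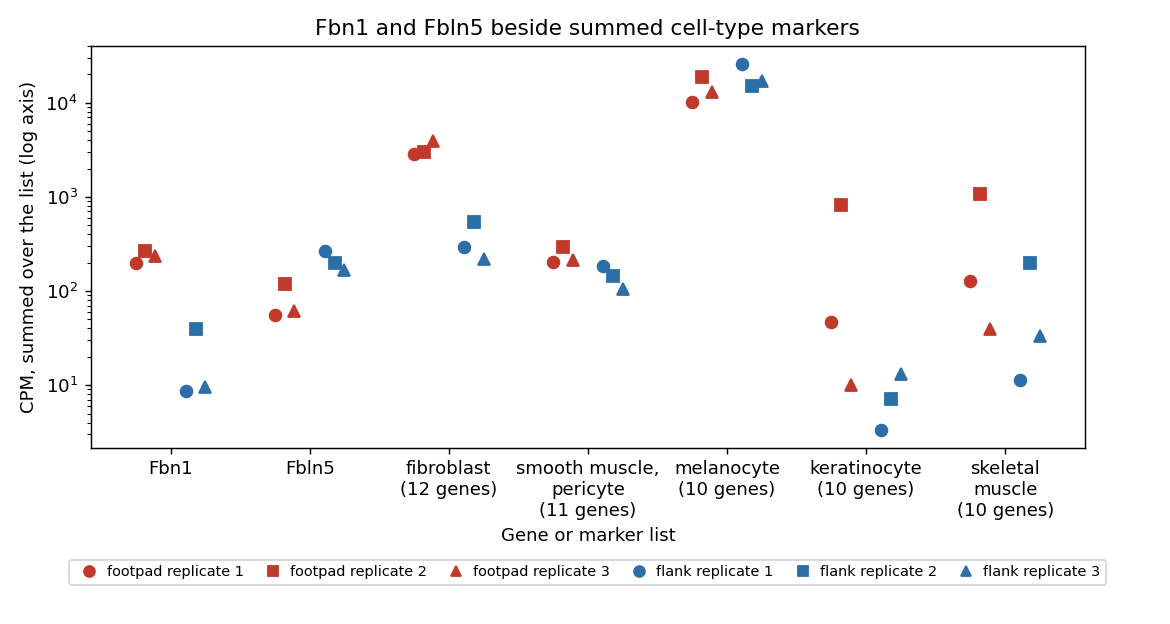
CPM (log axis) of Fbn1, of Fbln5 and of 5 summed marker lists in the 3 footpad tumors (red) and the 3 flank tumors (blue), with symbols for replicates. Fbn1 and the fibroblast markers are separated between the sites in the same direction, Fbln5 in the opposite one, melanocyte markers overlap, and footpad replicate 2 stands apart for keratinocyte and skeletal muscle markers.

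Around the fiber itself, 68 further genes of the pathway were listed, of which 60 were tested and 7 were called higher in footpad tumors, beside 2.89% of all genes, and 0 lower. Their median log2 fold change was 0.59, and 46 of 60 were fitted higher. DESeq2 called 16 of them, beside 8.75% of all genes. The number varied with the tumor left out, with 0 called without footpad replicate 1 or 3 and 1 without flank replicate 3. It was 6 without flank replicate 1 and 10 without flank replicate 2. The share of all genes called was not taken in these fits, so these counts cannot be set beside it. Without footpad replicate 2, 10 were called higher and 1 lower, which was Itga9, in a fit that called 3.62% of all its genes higher and 1.12% lower.

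Among the assembly factors, 4 of 21 tested were called higher, beside 2.89% of all genes tested. Of the 21, 18 were fitted higher, beside 49.7% of all genes tested. Every footpad tumor lay above every flank tumor for 11 of them, beside 17.5%. Loxl1, a lysyl oxidase-like enzyme that cross-links elastin, was at 22.6, 20.3 and 26.4 CPM in the footpad and 1.43, 3.35 and 0.543 CPM in the flank, and rose by a log2 fold change of 3.70 with a standard error of 0.59 (adjusted p = 0.0234). Ltbp4, a latent TGF-beta binding protein needed for elastic fiber assembly, rose by a log2 fold change of 2.37 (adjusted p = 0.0411). Adamtsl4, which binds fibrillin microfibrils, rose by 1.36 on the log2 scale (adjusted p = 0.027). Adamtsl3, an ADAMTS-like glycoprotein, had 126, 149 and 223 reads in the footpad tumors and was listed at 0 in all flank tumors. It passed the filter on low counts through the footpad tumors alone, so its call (adjusted p = 0.0105) is a description. The 4 assembly genes and the 7 pathway genes called include it. If each listed 0 stood for at most 3 reads, Adamtsl3 was at least 63.3-fold higher in the footpad. Atp6v0a2 and Atp7a, a proton pump subunit and the copper transporter that loads lysyl oxidases, had log2 fold changes of 0.13 and -0.16 and did not pass the test. Lox, the principal lysyl oxidase, was picked out after its values were seen. It had 5394, 6663 and 6134 reads in the footpad and 47, 782 and 46 in the flank, with a log2 fold change of 4.53 and a standard error of 1.10 that missed the threshold (adjusted p = 0.0592).

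Among relatives of the fibulins and emilins, 1 of 8 tested was called higher, beside 2.89% of all genes tested, and 7 were fitted higher. The gene called was Emilin2, with 75.5, 19.1 and 56.9 CPM in the footpad and 2.23, 9.60 and 4.70 CPM in the flank. Its log2 fold change was 3.20 (adjusted p = 0.0393). Efemp2, the fibulin-4 that recruits lysyl oxidase, had a log2 fold change of -0.36 (adjusted p = 0.275), and the large extracellular protein Hmcn1 had one of 0.50 (adjusted p = 0.346). Emilin3 had 8 reads in footpad replicate 1 and none elsewhere.

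The turnover list joins elastases, other matrix proteases and their inhibitors. In it edgeR called 1 of 11 tested higher, beside 2.89% of all genes tested. The gene called was an inhibitor of metalloproteinases, Timp1. It stood at 43.4, 24.7 and 44.0 CPM in the footpad and 13.3, 14.3 and 11.1 CPM in the flank (log2 fold change of 1.54, adjusted p = 0.0234). DESeq2 called 5 of 11 higher, beside 6.71% of all genes, which were Timp1, Slpi and the proteases Mmp2, Mmp9 and Ctss. The adjusted p of these proteases in edgeR was 0.0994, 0.112 and 0.120, and the sites overlapped for Mmp9. Of the 11, 10 were fitted higher. Ctsl, a lysosomal cysteine protease that can degrade elastin, passed the adjusted p of 0.0392 but not the fold, with a log2 fold change of 0.85. The membrane-bound Mmp14 had a log2 fold change of 0.24 (adjusted p = 0.379). The neutrophil elastase Elane, Ctsg and Mmp7 were listed at 0 in all 6 tumors.

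Of the receptors, 1 of 12 tested was called higher, beside 2.89% of all genes tested, and 7 were fitted lower. Itga5, a chain of the fibronectin receptor that also binds fibrillin-1, had a log2 fold change of 1.75 (adjusted p = 0.0165), while its partner chain Itgb1 had one of -0.10 (adjusted p = 0.721). Ctsa, the protective protein of the elastin receptor complex, had a log2 fold change of -0.35 (adjusted p = 0.394). Of the TGF-beta and BMP genes, 0 of 8 tested were called by edgeR and 1 by DESeq2, beside 3.76% and 8.75% of all genes tested. Of the 8, 3 had an unadjusted p under 0.05, beside 25.3% of all genes tested. The receptors Tgfbr1 and Tgfbr2 had log2 fold changes of -0.34 (adjusted p = 0.235) and 0.63 (adjusted p = 0.0539).

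**Figure D5:**
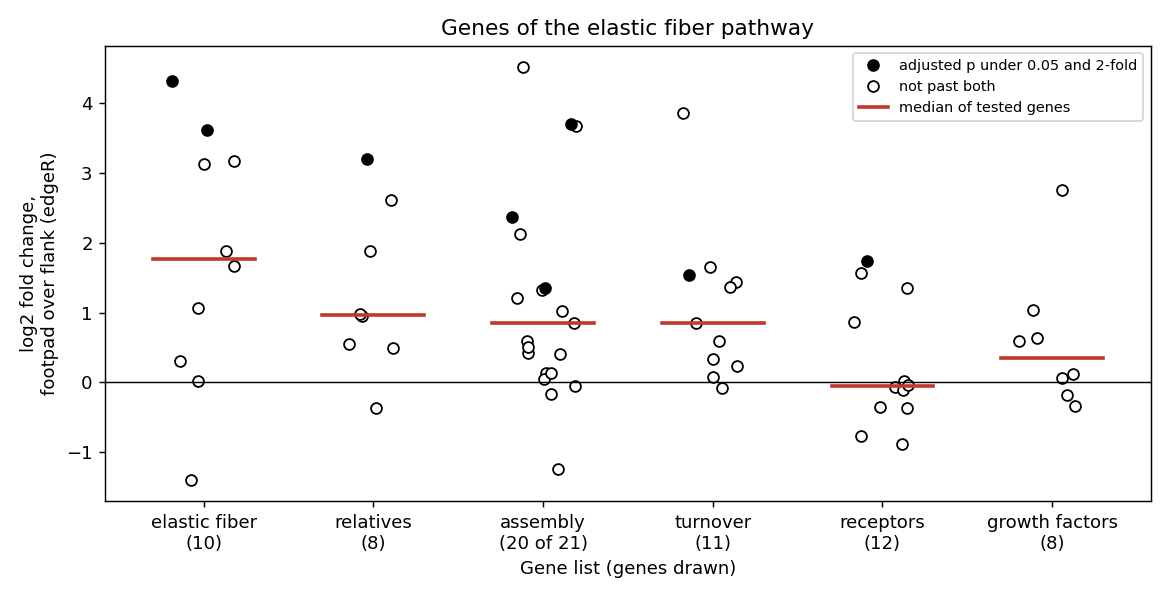
Log2 fold change of footpad over flank tumors (edgeR, y axis) for each tested gene of the 10 elastic fiber genes and of 5 pathway lists, with filled points for genes past both thresholds and a red line at the median of each list. Adamtsl3, listed at 0 in the flank, is not drawn, and the medians run from 1.77 in the elastic fiber genes to -0.05 in the receptors.

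The pattern of the 10 genes over the tumors, taken as the mean of their standardized log2 CPM, was 0.40, 0.37 and 0.61 in the footpad and -0.62, 0.09 and -0.85 in the flank. The tumor nearest to the other site was flank replicate 2. Outside all lists, the genes nearest to this pattern were Gm9997, Trpm5, Flrt2, Bach2 and Myrip, with Pearson's r between 0.992 and 0.996 over 6 tumors, as a description. Flrt2, the most abundant of them, stood at 9.23, 5.94 and 14.6 CPM in the footpad and at 0.621, 2.65 and 0.336 CPM in the flank. Gm9997 and Myrip stayed under 0.37 CPM in each tumor, near the limit of detection.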

How the data were processed

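RNA of 6 B16F10 tumors was analysed. Per the labels, the authors trimmed reads with Trimmomatic, checked them with FastQC 0.11.7 and aligned them to mm10 with HISAT2 2.1.0. The counting program and its use of strand are not given in the sources used here. The authors deposited raw read counts for each gene. They also deposited FPKM, which relates the count to transcript length and library depth. Under R 4.3.3, edgeR 4.0.16 was run on the counts with TMM factors, filterByExpr at its defaults, glmQLFit, glmQLFTest and Benjamini-Hochberg adjustment over all 17210 genes tested. Standard errors are the log2 fold change divided by the square root of F. The common coefficient of biological variation was 0.338. CPM are counts relative to the TMM-scaled library size, and levels between genes are compared as FPKM. The fit was tested on simulated data.

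Alternatives were DESeq2 1.42.0, upper-quartile scaling, no filter, 10 or more counts in every tumor, limma 3.58.1 on log2(FPKM + 1) and log2(FPKM + 0.1), a replicate block, other thresholds and leaving out each tumor. Ratios of 2 genes carry no test, since each includes a tumor with 0 reads and is a bound there. The genes and lists were chosen with earlier results of these data known. Named genes are the 10 genes, from each pathway list up to 4 genes called (smallest adjusted p) and up to 2 not called (highest mean FPKM), and the 5 genes most like the 10 in pattern. Lox, Itga9, the turnover genes called only by DESeq2, the marker genes and the genes at 0 were named after their values were seen.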

Additional observations from a re-analysis of the deposited data

How the results depend on the processing

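With edgeR's quasi-likelihood test, 2 of the 10 elastic fiber genes were called, and 5 of 10 passed both limits before adjustment of p. An unadjusted p under 0.05 alone was met by 25.3% of all genes tested. DESeq2 called 5, a minimum of 10 counts in every tumor 4 (of 6 genes left), limma on log2(FPKM + 0.1) 4, and a looser limit of 0.1 on the adjusted p 5. With each tumor left out the number ran from 0 to 3. The share of all genes called was taken only for edgeR on all tumors, for DESeq2 and for edgeR without footpad replicate 2. Of the other pathway genes 7 were called, DESeq2 called 16, the looser limit gave 13, and leaving out each tumor gave 0 to 11. Deviations of same-numbered tumors from their site means correlated between -0.115 and 0.0544, and 0 of 3 footpad tumors matched their own number best. With 3 tumors per site, this cannot show whether tumors came from the same animal. A fit with the replicate block called 0 of the 10 genes, with 5 past both limits before adjustment, and 0 of the pathway genes, with 18. The fitted log2 fold change of Emilin1, close to 0, turned to -0.0052, -0.019, -0.051 and -0.16 without footpad replicates 1 and 3 and flank replicates 1 and 3, and that of Atp6v0a2 to -0.044 without flank replicate 1, and over all tumors left out they reached 0.28 and 0.23. The cause was not tested. Bounds given for genes listed at 0 take the 0 as at most 3 reads, or 0.0438 to 0.0673 CPM at the depth of these libraries. They do not hold where a listed 0 is not a true count.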
